A study of Mus musculus with 12 samples.

Results

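CXC chemokines are small secreted or membrane-bound proteins that guide leukocytes through receptors on the cell surface. Their transcripts were followed in 12 RNA sequencing libraries of mouse cells for 10 genes taken by symbol: Cxcl1, Cxcl2, Cxcl3, Cxcl5, Cxcl9, Cxcl10, Cxcl11, Cxcl12, Cxcl14 and Cxcl16. All 10 matched 1 Ensembl gene each among the 53647 genes of the deposited count files. A filter on low counts left 14863 genes for testing, with 7 of the 10 among them. Cxcl9, Cxcl12 and Cxcl14 stayed below it and are given as counts.

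The labels name 2 mouse lines, both of wild-type genotype: DC2.4, an immortalized dendritic cell line, and 4T1, a breast cancer line. Cells of each line received mRNA for uniSTING, a mimic of the innate immune adaptor STING, or mRNA for the fluorescent protein EGFP, called Mock. DC2.4 cells were further kept for 24 h with the extracellular vesicles shed by treated 4T1 cells, which had taken up either uniSTING mRNA (EXOuniSTING) or Mock mRNA (EXOmock). The labels name a transfection reagent and lipid nanoparticles as carriers of the mRNA, without saying which served which library, and give no time for the mRNA groups. Each of the 6 groups held 2 libraries, called preparation 1 and preparation 2. Nothing in the labels says that preparations were separate cultures. The p-values below therefore rest on a spread between libraries that may be technical only.

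Library totals were 14.1 to 26.0 M counts, and 3 counts, taken as the floor, equalled 0.115 to 0.213 counts per M counts of a library (CPM). Floors and counting intervals cover counting error only. In the mRNA groups the cell markers went against the labels. Epcam, an epithelial adhesion gene, had 5041 to 7971 counts in the 4 mRNA-treated libraries labelled DC2.4, where Ptprc, the pan-leukocyte gene for CD45, had 0 to 19. The 4 libraries labelled 4T1 had 5547 to 8490 counts of Ptprc and 0 to 5 of Epcam. The 4 vesicle-treated libraries had 4339 to 6402 counts of Ptprc and 0 to 11 of Epcam. Summed over 15 epithelial markers, the level was 5676 to 5961 CPM in the first set, 163.7 to 167.3 CPM in the second and 131.8 to 146.5 CPM in the third. Over 16 leukocyte and myeloid markers the sums were 157.1 to 209.7, 8269 to 8382 and 11380 to 14400 CPM. Of 9 dendritic markers, 3 averaged at least 1 CPM in the 2 sets of libraries with leukocyte markers. Flt3 had 0 to 5 counts, Clec9a 0 to 2 and Xcr1 0 to 4. Cd86, which macrophages also express, had 510 to 887 counts under the 4T1 label and 882 to 1296 with vesicles, and Zbtb46 had 173 to 296 and 118 to 228. Summed markers of fibroblasts, endothelium, lymphocytes and neutrophils each stayed at or below 14.3 CPM in every library. Groups are therefore called by their labels, and every direction below is one for the libraries that carry the label.

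The family is divided by sequence and receptor. Cxcl1, Cxcl2, Cxcl3 and Cxcl5 carry the ELR motif, bind CXCR2 and attract neutrophils; their genes are known targets of the NF-kB transcription factors. Cxcl9, Cxcl10 and Cxcl11 lack that motif, bind CXCR3 on activated T cells and natural killer cells, and are induced by interferons. Cxcl12 and Cxcl14 are homeostatic ligands, Cxcl12 acting through CXCR4 in stromal niches. Cxcl16 is made as a membrane protein, binds CXCR6 and is released by the proteases ADAM10 and ADAM17. STING is known to signal through TBK1 to the interferon factor IRF3 and also to NF-kB, and both classes are known outputs of its signalling.

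The promoters below are shown because the ELR ligands and Cxcl10 share NF-kB matches, and Cxcl10 also holds an interferon-type match. They end at the base before the transcription start and were taken from RefSeq on GRCm38.p6, an earlier build than the GRCm39 of the count files. RefSeq gave 7 of the 10 members, with Cxcl5, Cxcl11 and Cxcl16 not among them. For the ELR ligands the last 150 bases are printed and for Cxcl10 all 250. Capitals mark NF-kB motifs (GGG, any 3 bases, TTCC, on both strands), interferon-stimulated response elements (ISRE: GAAA, any 2 bases, GAAA, on both strands) and TATA boxes (TATAAA, gene strand).
Cxcl1, chr5:90891095-90891244, plus strand: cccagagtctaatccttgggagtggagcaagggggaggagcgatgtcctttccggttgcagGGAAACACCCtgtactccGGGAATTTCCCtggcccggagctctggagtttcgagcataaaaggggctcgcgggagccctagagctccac
Cxcl2, chr5:90903749-90903898, plus strand: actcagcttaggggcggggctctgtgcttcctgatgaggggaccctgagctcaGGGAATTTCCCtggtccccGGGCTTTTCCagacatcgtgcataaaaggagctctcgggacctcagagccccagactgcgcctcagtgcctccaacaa
Cxcl3, chr5:90785951-90786100, plus strand: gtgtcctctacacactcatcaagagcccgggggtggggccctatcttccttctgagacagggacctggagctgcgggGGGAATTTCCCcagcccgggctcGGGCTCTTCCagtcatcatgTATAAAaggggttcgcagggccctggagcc
Cxcl10, chr5:92348890-92349139, minus strand: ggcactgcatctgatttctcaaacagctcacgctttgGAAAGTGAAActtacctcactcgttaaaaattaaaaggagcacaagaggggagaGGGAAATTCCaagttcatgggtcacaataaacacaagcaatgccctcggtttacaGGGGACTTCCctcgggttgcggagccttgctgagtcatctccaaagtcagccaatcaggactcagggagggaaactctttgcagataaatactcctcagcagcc

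All 3 ELR ligands shown held the same NF-kB match, GGGAATTTCC, which began 71 bases before the start in Cxcl1, 97 in Cxcl2 and 73 in Cxcl3. Because it is nearly palindromic, the match on the other strand overlaps it by all but 1 base. Each held a further NF-kB match within these bases, and none held an ISRE match in its 250 bases. Cxcl10 held an ISRE match, GAAAGTGAAA, from 213 to 204 bases before the start, and NF-kB matches GGGAAATTCC and GGGGACTTCC from 159 and 104. Among 32536 RefSeq promoter windows of 250 bases, 4.65% held the NF-kB motif, 2.98% the ISRE motif and 7.55% the TATA motif. Cxcl9 held a TATA match only, Cxcl14 an ISRE match only, and Cxcl12 none. A match of letters is a description and shows no binding.

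**Figure D1:**
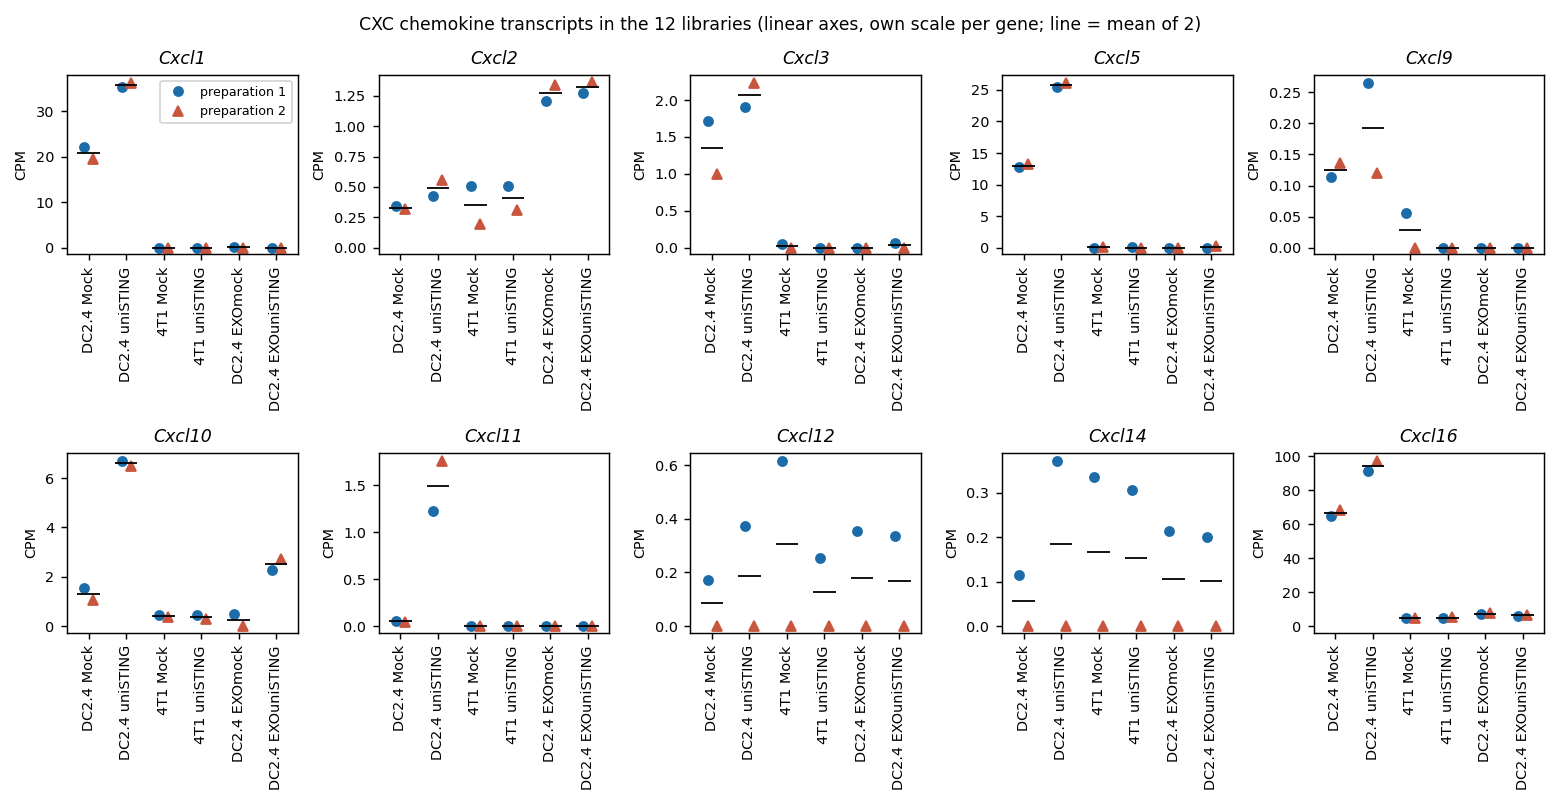
CPM of the 10 CXC chemokines in each of the 12 libraries, on a linear axis with its own scale for each gene; circles are preparation 1, triangles preparation 2 and lines the mean of 2. Cxcl1, Cxcl3, Cxcl5, Cxcl11 and Cxcl16 are highest in the mRNA-treated libraries labelled DC2.4, Cxcl2 is highest in the vesicle-treated libraries, and Cxcl12 and Cxcl14 are at 0 in all preparation 2 libraries.

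uniSTING mRNA under the DC2.4 label was accompanied by higher levels of 5 of the 7 tested CXC chemokines. These were the neutrophil attractants Cxcl1 and Cxcl5, the CXCR3 ligands Cxcl10 and Cxcl11, and the membrane-bound Cxcl16. Leaving Cxcl11 aside, Cxcl10 changed most of these, about 5-fold, and Cxcl16 least, at 1.44-fold. The remaining CXCR3 ligand, Cxcl9, was not tested. Cxcl11 passed the filter on low counts only through the uniSTING libraries, so it could only be called higher, and nothing is read from the count of 5. In this comparison 41.7% of all genes tested passed the threshold (edgeR quasi-likelihood test, adjusted p below 0.05) and 20.8% passed as higher. In bulk libraries, fewer cells of a type and less RNA per cell cannot be told apart.

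Cxcl1 had 387 and 432 counts in Mock preparations 1 and 2 and 667 and 910 in uniSTING, or 22.1, 19.6, 35.4 and 36.3 CPM. Both uniSTING libraries lay above both Mock libraries, and the log2 fold change was 0.80 ± 0.14 (SE, n = 2 against 2; edgeR adjusted p = 0.000594). Cxcl5 had 223 and 291 counts in Mock and 480 and 655 in uniSTING, or 12.7, 13.2, 25.5 and 26.1 CPM. Its groups were also apart, with a log2 fold change of 1.01 ± 0.19 (edgeR adjusted p = 0.00069).

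The other ELR ligands were far lower and did not pass. Cxcl3 had 30 and 22 counts in Mock and 36 and 56 in uniSTING, so its groups did not overlap in CPM, but the log2 fold change of 0.64 had a 95% interval of -0.40 to 1.69 (edgeR adjusted p = 0.323). Within preparation 1 alone its log2 ratio was 0.15 and within preparation 2 alone 1.14. Cxcl2 had 6 and 7 counts in Mock and 8 and 14 in uniSTING, a log2 fold change of 0.60 with an interval of -0.51 to 1.72 (edgeR adjusted p = 0.394). At these counts a 2-fold rise of either gene lies inside the interval.

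Cxcl10, the most abundant CXCR3 ligand here, had 27 and 23 counts in Mock and 126 and 163 in uniSTING, or 1.54, 1.04, 6.69 and 6.50 CPM. The uniSTING libraries stood well above both Mock libraries: the log2 fold change was 2.38 ± 0.42 (edgeR adjusted p = 0.000385). Cxcl11 had 1 count in each Mock library and 23 and 44 in uniSTING. With 2 counts in the control group, the ratio of summed CPM, 30.2, carries a 95% counting interval of 8.03 to 254. Because Cxcl11 passed the filter on low counts only through the uniSTING libraries, its edgeR call is not used as support. RefSeq lists Cxcl11 as a transcribed pseudogene on the reference build GRCm38.p6. Whether that holds in the cells used here was not tested, and its counts are of RNA and say nothing of a ligand. Cxcl9, the third CXCR3 ligand, had 2 and 3 counts in Mock and 5 and 3 in uniSTING, and was not tested. Its ratio of 1.44 has a counting interval of 0.416 to 5.60.

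Cxcl16 was the most abundant member and changed least, yet with the smallest error. Its counts were 1140 and 1504 in Mock and 1722 and 2444 in uniSTING, or 65.1, 68.2, 91.4 and 97.5 CPM. The log2 fold change was 0.52 ± 0.06 (edgeR adjusted p = 3.32e-06), and it was 0.49 within preparation 1 and 0.51 within preparation 2. All 5 calls ended when the test asked for more than a 2-fold change. Summed epithelial markers were 5676 to 5738 CPM in Mock and 5940 to 5961 CPM in uniSTING, and summed leukocyte markers 157.1 to 176.0 and 188.0 to 209.7 CPM; their part in these results was not tested.

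Under the 4T1 label 3 members were measurable, Cxcl2, Cxcl10 and Cxcl16, and none of these 3 passed with uniSTING mRNA. With edgeR 0 of the members tested had an unadjusted p below 0.05, and DESeq2 and limma-voom also called 0. Of all genes 28.3% passed. The other 4 tested members, Cxcl1, Cxcl3, Cxcl5 and Cxcl11, passed the filter on low counts only through libraries labelled DC2.4, so they add nothing to this count. Cxcl2 and Cxcl10 also passed it through their higher levels in libraries outside this label, and their tests here rest on few counts. Cxcl16 had 80 and 118 counts in Mock and 94 and 132 in uniSTING, or 4.47, 4.68, 4.79 and 5.08 CPM. Its log2 fold change of 0.08 had an interval of -0.17 to 0.33, which leaves out the 0.52 seen under the DC2.4 label. Cxcl10 had 8 and 9 counts in Mock and 9 and 7 in uniSTING, and its groups overlapped; the log2 fold change was -0.19 with an interval of -1.60 to 1.22. Cxcl2 had 9 and 5 counts against 10 and 8, with a log2 fold change of 0.23 and an interval of -0.90 to 1.36. Cxcl1, Cxcl3, Cxcl5 and Cxcl9 had 0 to 3 counts in each of these libraries, at or under the floor, and Cxcl11 had 0, so no fold is given for them.

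The responses of the 2 labels were also compared directly, and Cxcl10 and Cxcl16 differed, both toward a larger response under the DC2.4 label. Of all genes 31.1% differed and 16.0% did so in this direction. The Cxcl10 response was larger under the DC2.4 label by 2.57 ± 0.79 on the log2 scale (edgeR adjusted p = 0.0239). Of the 8 libraries in that contrast, 4 each carried it past the threshold: without Mock preparation 2 labelled DC2.4 the adjusted p was 0.0738, without Mock preparation 1 or 2 labelled 4T1 it was 0.0801 or 0.0619, and without uniSTING preparation 2 labelled 4T1 it was 0.0878. The log2 difference remained between 2.21 and 2.95. The Cxcl16 response was larger by 0.44 ± 0.13 (edgeR adjusted p = 0.0193), a call lost with DESeq2 (0.0614), with limma-voom (0.0607), and without uniSTING preparation 2 labelled DC2.4 (0.0552), Mock preparation 2 labelled 4T1 (0.12) or uniSTING preparation 1 labelled 4T1 (0.0683). For Cxcl11, at 0 in every library labelled 4T1, edgeR gave no standard error, and no difference is given.

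In cells given vesicles, Cxcl10 passed, and it was higher with vesicles from uniSTING cells. Across all genes 16.1% passed and 7.96% passed as higher. Cxcl10 had 7 and 0 counts in EXOmock and 34 and 58 in EXOuniSTING, or 0.498, 0, 2.28 and 2.73 CPM. Both EXOuniSTING libraries lay above both controls, with 92 counts against 7 in sum, and the log2 fold change was 3.49 ± 0.61 (edgeR adjusted p = 0.00167). Its size rests on the few control counts. In preparation 1 the ratio was 4.58 with a counting interval of 2.00 to 12.2. In preparation 2, against 0 counts, Cxcl10 was 17.0-fold the floor of 3 counts, and the counting interval began at 13.4. Without EXOmock preparation 2 the fitted log2 fold change was 2.33 (edgeR adjusted p = 0.00678), and without EXOmock preparation 1 it was 8.69, a fit against 0 counts that sets no bound.

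Cxcl2 and Cxcl16 were measurable in the vesicle-treated libraries and did not pass. Cxcl2 had 17 and 25 counts in EXOmock and 19 and 29 in EXOuniSTING; the log2 fold change was 0.05 with an interval of -0.85 to 0.95. Cxcl16 had 98 and 143 counts in EXOmock and 90 and 144 in EXOuniSTING, or 6.97, 7.65, 6.03 and 6.78 CPM. Its log2 fold change of -0.19 had an interval of -0.43 to 0.06 (edgeR adjusted p = 0.358). Cxcl1, Cxcl3 and Cxcl5, all higher in the libraries with epithelial markers, had 0 to 5 counts in each vesicle-treated library, and Cxcl9 and Cxcl11 had 0 in all 4. Summed leukocyte markers were 14340 to 14400 CPM in EXOmock and 11380 to 12160 CPM in EXOuniSTING, and their part in the Cxcl10 difference was not tested.

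The vesicle response of Cxcl10 also differed from its mRNA response under the 4T1 label, the other set of libraries with leukocyte markers. The mRNA response was smaller by 3.68 ± 0.94 on the log2 scale (edgeR adjusted p = 0.00933), and 28.0% of all genes were called in either direction and 15.0% in this one. This difference rests on the same low EXOmock counts: it was -2.52 without EXOmock preparation 2 and -8.87, a fit against 0, without preparation 1. The 2 arms also carry different cell line labels, 4T1 and DC2.4, with summed leukocyte markers of 8269 to 8382 CPM and 11380 to 14400 CPM. The labels match neither time nor carrier between these arms. These differences cannot be told apart from the source of the stimulus.

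**Figure D2:**
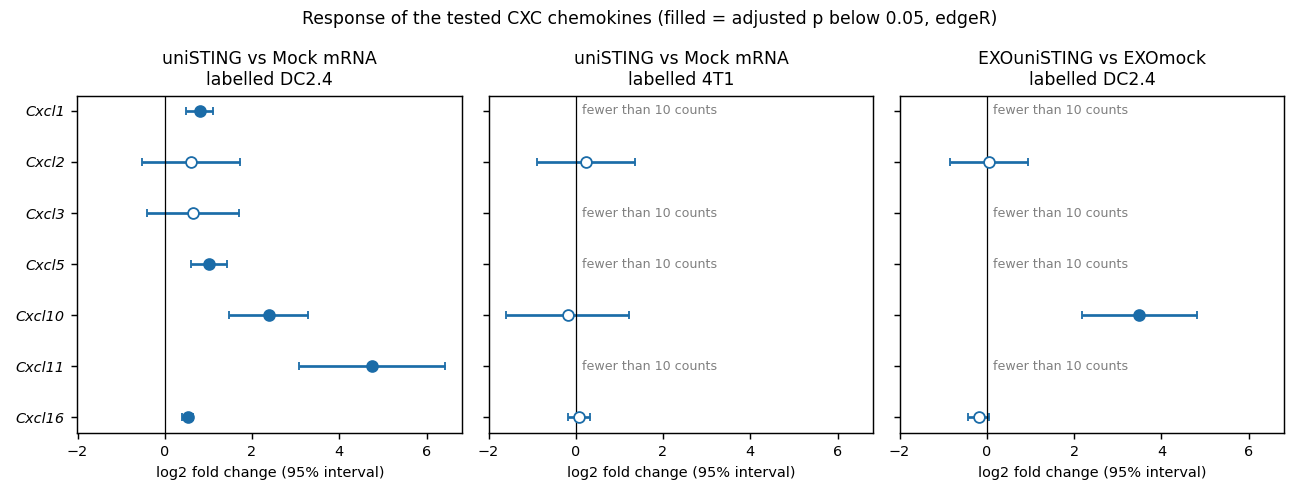
Log2 fold changes with 95% intervals of the 7 tested CXC chemokines in the 3 comparisons of uniSTING with its control; filled points passed an adjusted p of 0.05 in edgeR. Cxcl10 is filled in the first panel at 2.38 and in the third at 3.49, no point is filled under the 4T1 label, and genes with fewer than 10 counts over the 4 libraries are named without a value.

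Without uniSTING, the 2 Mock groups differed in 5 of the 7 members, all higher under the DC2.4 label, where 83.0% of all genes differed and 42.4% were higher. Cxcl1, Cxcl3 and Cxcl5 passed the filter on low counts only through the mRNA-treated libraries labelled DC2.4, which set their direction, so nothing is read from this count. Cxcl1 had 819 counts in sum against 0, 298-fold the floor of 3 counts over the group, and the counting interval began at 241. Cxcl5 had 514 against 3, a ratio of 187 with a counting interval of 63.5 to 908. Cxcl3 had 52 against 1, a ratio of 56.7 with an interval of 9.73 to 2281. Cxcl16 was higher by 3.93 ± 0.08 on the log2 scale (edgeR adjusted p = 2.92e-15). Cxcl10 was higher by 1.75 ± 0.55 (edgeR adjusted p = 0.00921), a call lost without Mock preparation 1 labelled DC2.4 (0.0612) or Mock preparation 2 labelled 4T1 (0.063). Cxcl2, at 13 against 14 counts, differed by 0.05 with an interval of -1.12 to 1.23. Epithelial and leukocyte markers separate the same 2 groups, so the label, the cell type shown by the markers and these levels cannot be told apart.

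Across the 6 groups the levels of Cxcl1, Cxcl3 and Cxcl5 fell into 2 blocks, both groups labelled DC2.4 and given mRNA above the other 4, whose ranges overlapped one another. Cxcl10 was highest with uniSTING mRNA labelled DC2.4 at 6.59 ± 0.13 CPM (SD, n = 2). EXOuniSTING followed at 2.50 ± 0.32 CPM, then Mock labelled DC2.4 at 1.29 ± 0.35 CPM, with no overlap between these neighbours. The 3 lowest groups, at 0.249 to 0.402 CPM, overlapped. Cxcl2 had another order: EXOuniSTING at 1.32 ± 0.07 and EXOmock at 1.27 ± 0.09 CPM overlapped each other and lay above the remaining groups, at 0.330 to 0.491 CPM. Cxcl16 ran from 4.58 ± 0.15 CPM in Mock labelled 4T1 to 94.4 ± 4.31 CPM in uniSTING labelled DC2.4 without overlap between neighbours in CPM.

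Per length, in transcripts per M (TPM), Cxcl16 was the most abundant of the 10 in every group. In Mock labelled DC2.4 the 10 genes summed to 127 ± 1.19 TPM (SD, n = 2), of which Cxcl16 gave 53.4%, Cxcl1 26.9%, Cxcl5 16.8% and Cxcl10 1.39%. With uniSTING the sum was 195 ± 5.81 TPM, and Cxcl10 gave 4.27% of it. The sums were 6.46 ± 0.77 and 6.64 ± 0.73 TPM in Mock and uniSTING labelled 4T1, with 74.9% and 77.8% from Cxcl16. In the vesicle groups Cxcl10 gave 3.26 ± 4.62% of 9.50 ± 0.43 TPM in EXOmock and 27.6 ± 1.35% of 11.5 ± 0.94 TPM in EXOuniSTING, as the share of Cxcl16 went from 73.9% to 52.8%. These shares describe the libraries and were not tested. Pf4, a CXC ligand outside the 10, enters neither sums nor shares. Its group mean TPM was 0 for Mock and 0.314 for uniSTING mRNA under the DC2.4 label. Under the 4T1 label it was 361 for Mock and 239 for uniSTING, and with vesicles 355 for EXOmock and 340 for EXOuniSTING. In these last groups Pf4 alone exceeded the sum of the 10, so a low sum there does not mean little CXC ligand RNA.

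**Figure D3:**
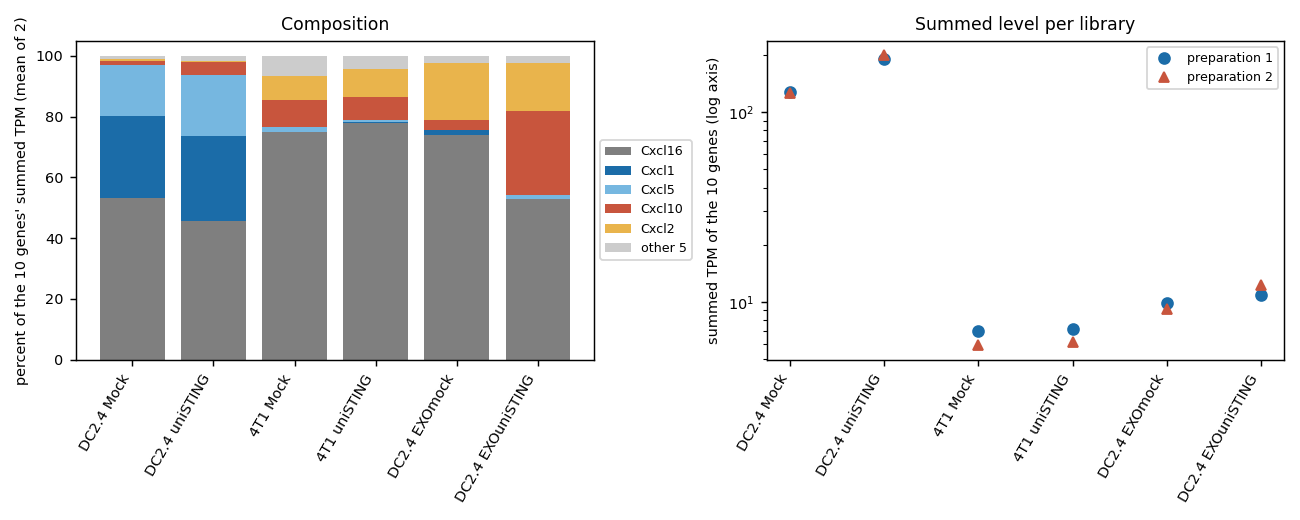
Left, mean share of each gene in the summed TPM of the 10 CXC chemokines by group, in percent; right, the sum in each library on a log axis, by preparation. The sums are 127 and 195 TPM in the 2 groups labelled DC2.4 and given mRNA and 6.46 to 11.5 TPM in the other 4, and Cxcl10 takes 27.6% in EXOuniSTING. Pf4, a CXC ligand outside these 10, is not part of the sums.

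Cxcl12 and Cxcl14, the homeostatic ligands, were seen in 1 preparation alone. Cxcl12 had 3, 7, 11, 5, 5 and 5 counts in the preparation 1 libraries of the 6 groups and 0 in each preparation 2 library. Cxcl14 had 2, 7, 6, 6, 3 and 3 counts in preparation 1 and 0 in preparation 2. The preparation 2 libraries were 1.26 to 1.42 times deeper. Cxcl15, a CXC gene of lung epithelium that is not a member, had 23 to 47 counts in preparation 1 and 0 or 1 in preparation 2. Transcripts of other tissues ran the same way: the surfactant gene Sftpc had 421 to 729 counts and the insulin gene Ins2 171 to 2117 in preparation 1, and both had 0 in every preparation 2 library. The source of the Cxcl12 and Cxcl14 counts was not tested, and they are given as no evidence of a level in these cells.

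**Figure D4:**
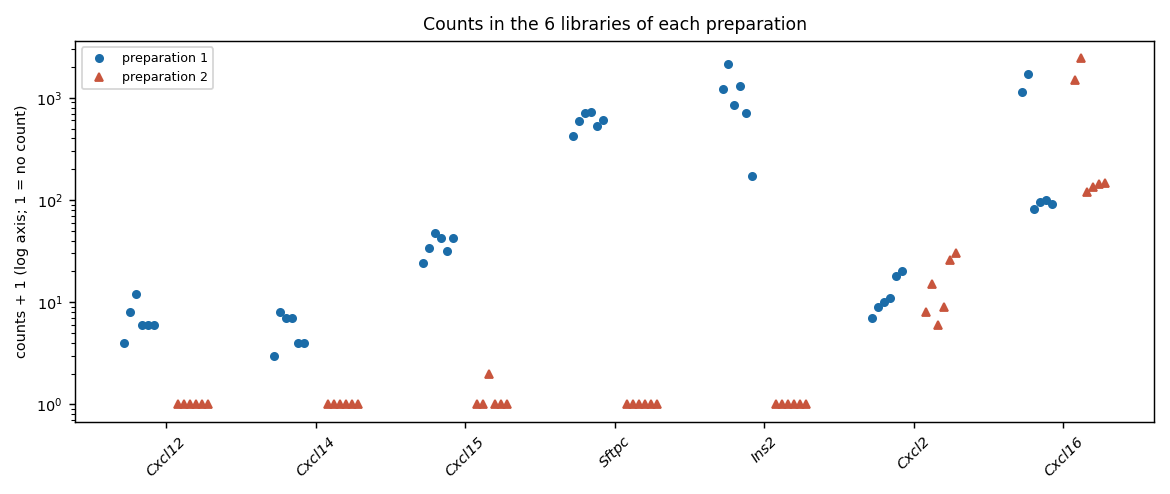
Counts plus 1 on a log axis in the 6 libraries of preparation 1 (circles) and of preparation 2 (triangles) for 5 CXC genes and 2 genes of other tissues. Cxcl12, Cxcl14, Sftpc and Ins2 are at 0 counts in all of preparation 2 and Cxcl15 has 1 count in 1 library, while Cxcl2 and Cxcl16 are counted in both preparations.

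Of the 10 members, 7 lie on chromosome 5 in 2 clusters, by the coordinates of the files (GRCm39). Cxcl5, Cxcl3, Cxcl1 and Cxcl2 share a span of 146.6 kb with Ppbp, Pf4 and Cxcl15, and Cxcl9, Cxcl10 and Cxcl11 share 44.1 kb. Neighbours within the first cluster had opposite patterns. Among these genes Pf4 is itself a CXC ligand, though not a member. Pf4, which encodes platelet factor 4 and starts 13.1 kb from Cxcl5, had 0 and 0 counts in Mock labelled DC2.4 and 1466 and 2079 in Mock labelled 4T1, the reverse of Cxcl5 and Cxcl1. Pf4 fell with uniSTING mRNA under the 4T1 label, to 1091 and 1415 counts, by 0.61 ± 0.06 on the log2 scale (edgeR adjusted p = 1.55e-05). Cxcl1 at chr5:91039100-91040974 and Cxcl2 at chr5:91051730-91053797 start 12.6 kb apart, and Cxcl1 was 20.9 CPM in Mock labelled DC2.4 where Cxcl2 was 0.330 CPM.

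**Figure D5:**
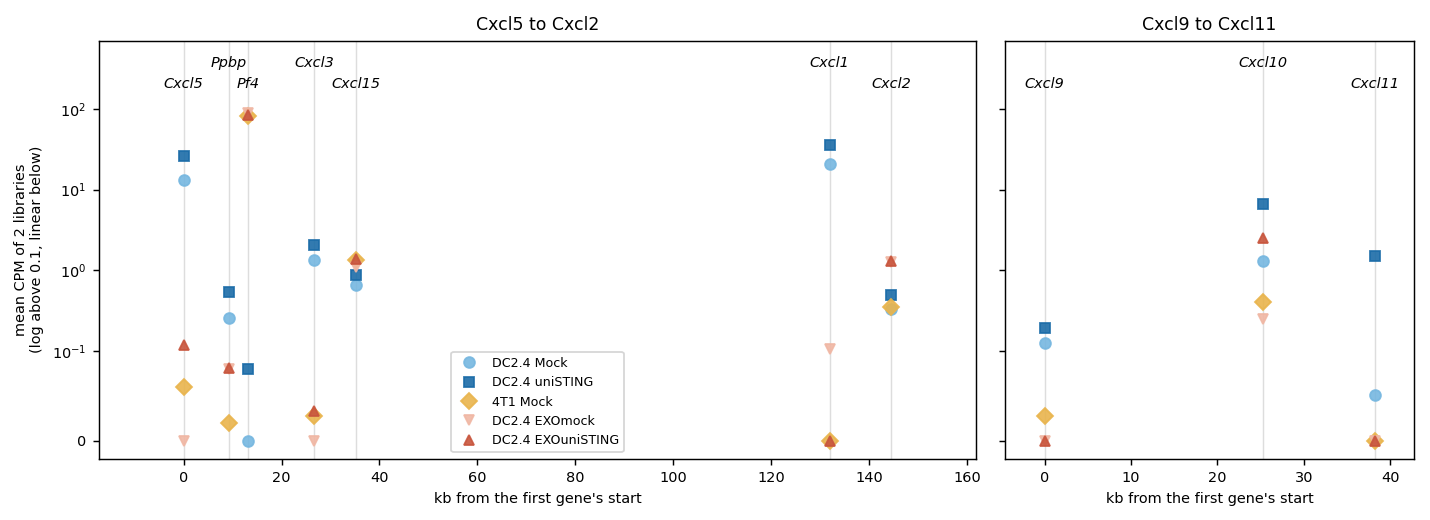
Mean CPM of 2 libraries for the genes of the 2 chromosome 5 clusters against distance in kb from the start of the first gene; the vertical axis is logarithmic above 0.1 and linear below. Cxcl5 and Cxcl1 are high in the 2 groups labelled DC2.4 and given mRNA, Pf4 lies at 82.2 to 88.5 CPM in the other groups drawn, and Cxcl10 is higher in EXOuniSTING than in EXOmock.

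Reads were counted without regard to strand, so overlapping models bear on some members. Gm2673, on the opposite strand, shares 1582 exonic bases with Cxcl11 (41.7% of its exons) and had 0 counts in all libraries. Zmynd15 shares 552 bases with Cxcl16 (18.3%) and had 8 to 66 counts, and Art3 shares 133 bases with Cxcl10 (5.91%) and had 0 to 5. Reads from a gene and its antisense partner cannot be told apart in these files, and counting may share or lose reads where models overlap. The 0 counts of Gm2673 therefore do not show that no reads fell there, and Cxcl11 may be counted too low. The ELR ligand genes resemble each other in sequence, and how uniquely mapped counting divides their reads was not tested.

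Apart from Ackr3 in the mRNA-treated libraries labelled DC2.4, receptor genes were scarce, with group means of at most 3.82 CPM. Of 11 CXC and atypical receptor genes, 4 passed the filter and 0 of them passed the test with uniSTING in any of the 3 comparisons. With edgeR 0, 0 and 1 had an unadjusted p below 0.05, and DESeq2 and limma-voom called 0. Of all genes 41.7%, 28.3% and 16.1% passed. Low counts limit what this can show. Under the DC2.4 label Cxcr4 had 0 summed counts in uniSTING and 1 in Mock, and Cxcr5 0 and 3. Under the 4T1 label Cxcr5 had 3 and 1 and Ackr3 1 and 0, and with vesicles Ackr3 had 1 and 6. Ackr3 passed the filter on low counts only through the mRNA-treated libraries labelled DC2.4, and Cxcr5 only through vesicle-treated libraries. Their tests elsewhere are not read as absence of a change. Ccrl2 had 17 and 5 under the DC2.4 label, a log2 fold change of 1.63 with an interval of -0.09 to 3.36. Its uniSTING libraries were at 0.160 and 0.690 CPM, and whether it passed depended on uniSTING preparation 2. Ackr3, a scavenging receptor for CXCL12, had 2360 counts in Mock and 2535 in uniSTING labelled DC2.4, 59.8 and 57.6 CPM, with a log2 fold change of -0.03 and an interval of -0.21 to 0.15. It had 0 to 6 summed counts in each other group. Cxcr4 had 23 to 100 summed counts in the 4 groups with leukocyte markers and 0 or 1 in those with epithelial markers. Cxcr2, the ELR ligand receptor, had 15 summed counts in Mock labelled 4T1 and 0 or 1 in every other group, and Cxcr3 had 2 to 16.

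Among proteases that cut CXC ligands, 7 were tested. Under the DC2.4 label 1 was higher and 3 were lower, with a median log2 fold change of 0.02, against 41.7% of all genes called. Mmp9, which trims ELR ligands, fell by 1.06 ± 0.04 (edgeR adjusted p = 1.71e-10), Adam10, a Cxcl16 sheddase, fell by 0.17 ± 0.03 (0.000293), and the lysosomal Ctsl rose by 0.43 ± 0.02 (1.55e-10). Under the 4T1 label, with 28.3% of all genes called, 1 was higher and 2 were lower, among them Adam17, which fell by 0.31 ± 0.03 (edgeR adjusted p = 1.66e-05). With vesicles 1 of 7 passed, against 16.1% of all genes: Mmp9 fell by 0.63 ± 0.10 (edgeR adjusted p = 0.000712).

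Of 8 interferon-side transcription factors, 5 were higher and 1 lower with uniSTING mRNA labelled DC2.4, with a median log2 fold change of 0.39 where that of all genes was 0.00. Of all genes 41.7% were called and 20.8% were higher. Without 1 library, 4 to 6 of the 8 were called. Irf7, which amplifies interferon responses, rose by 2.12 ± 0.17 (edgeR adjusted p = 2.63e-07), and Irf9 and Stat2, subunits of the complex that binds ISREs, rose by 1.14 ± 0.11 and 0.48 ± 0.09. The member that was lower, Irf2, fell by 0.21 ± 0.05 (edgeR adjusted p = 0.0062), a call lost without Mock preparation 1 (0.0557). With vesicles 2 of 8 passed, against 16.1% of all genes, both higher: Irf7 by 2.05 ± 0.15 and Irf9 by 0.78 ± 0.11 (edgeR adjusted p = 1.19e-06 and 0.000275). Under the 4T1 label, with 28.3% of all genes called, 1 was higher and 2 lower. Irf7 rose by 0.43 ± 0.15 (edgeR adjusted p = 0.0434), a call lost with DESeq2 (adjusted p = 0.108) and without any 1 of the 4 libraries. Its log2 fold change was 0.36 to 0.51 without 1 library. Of the 2 that were lower, Irf8 fell by 0.23 ± 0.03 (edgeR adjusted p = 3.85e-05), and Irf1 fell by 0.27 ± 0.06 (0.00564), a call lost without Mock preparation 1 (0.0571) or uniSTING preparation 2 (0.0659).

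The NF-kB subunits and their feedback genes behaved differently under the 2 labels. Of 10 tested, 2 were higher and 3 lower with uniSTING mRNA labelled DC2.4, and 9 were called under the 4T1 label, all lower (6 to 8 without 1 library). Of all genes 41.7% and 28.3% were called in these comparisons. Nfkbia, the IkB-alpha gene and an NF-kB target, rose by 0.48 ± 0.06 under the DC2.4 label (edgeR adjusted p = 1.26e-05) and fell by 0.64 ± 0.06 under the 4T1 label (2.05e-06). The difference of these 2 responses was 1.12 ± 0.08 (edgeR adjusted p = 1.63e-07), and 7 of the 10 genes differed in this direction. Of all genes 31.1% differed and 16.0% did so in this direction. Nfkb1 fell alike under both labels, by 0.25 ± 0.03 (edgeR adjusted p = 3.09e-06 and 1.81e-05). Nfkb2 and Rel also fell under the DC2.4 label, by 0.13 ± 0.02 and 0.36 ± 0.07. Over the 10 genes the median log2 fold changes were -0.09 under the DC2.4 label and -0.37 under the 4T1 label. With vesicles 2 were higher and 1 lower, against 16.1% of all genes called, with a median of 0.03. Each of these 3 calls was lost without either of 2 single libraries: Relb (edgeR adjusted p = 0.0735 or 0.0617) and Nfkbiz (0.134 or 0.0843) without EXOmock or EXOuniSTING preparation 1, and Nfkb2 (0.185 or 0.0598) without EXOmock or EXOuniSTING preparation 2.

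Of 9 factors that set the stability of chemokine mRNAs, 6 were called under the DC2.4 label, 5 under the 4T1 label and 3 with vesicles, and all of these calls were toward lower levels. Of all genes 41.7%, 28.3% and 16.1% were called, and 3102, 2331 and 1210 of 14863 were called lower. Under the 4T1 label the count was 3 without Mock preparation 2. With vesicles it was 1 without EXOuniSTING preparation 1, where Zfp36l2 (edgeR adjusted p = 0.064) and Elavl1 (0.068) were lost, and the Elavl1 call was lost without any 1 of the 4 libraries (0.068 to 0.192) and with DESeq2 (0.208). The median log2 fold changes were -0.30, -0.15 and -0.10. Khsrp and Rc3h1, which promote decay of such mRNAs, fell by 0.47 ± 0.03 and 0.54 ± 0.04 under the DC2.4 label (edgeR adjusted p = 7.09e-08 and 1.69e-07). Elavl1, which encodes the stabilizing protein HuR, fell by 0.27 ± 0.03 (1.53e-06). Zfp36l2 had the smallest adjusted p of this list under the DC2.4 label and fell by 0.42 ± 0.03 (edgeR adjusted p = 2.25e-08). Under the 4T1 label it was Zfp36l1, which fell by 0.79 ± 0.05 (edgeR adjusted p = 4.92e-08).

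Genes with the pattern closest to a member over the 3 comparisons were found by the distance between log2 fold changes, among 10977 named genes of at least 1 CPM. For Cxcl10 they were Ifit1, Usp18 and Ifit3, at distances of 0.51, 0.91 and 1.00. Ifit1, an antiviral gene induced by interferon, changed by 2.20, -0.10 and 3.02 on the log2 scale in the order of the comparisons above. For Cxcl16 the nearest were Hsd17b7, Sertad3 and Erich1, at 0.01 to 0.06. For Cxcl1, 2 of whose 3 fold changes rest on 0 to 3 counts, the nearest were Osr1, Nmnat2 and Zfp9, at 0.77 to 1.20. Distances over 3 values describe the libraries and carry no test.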

How the data were processed

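Per the labels' protocols, 12 libraries were made from 1.0 µg of RNA each with a NEBNext Ultra kit, and strand is not stated. The authors deposited counts per gene. The submitters' processing notes name HISAT2 and GRCm39 for the alignment. featureCounts (Subread 2.0.1) counted uniquely mapped read pairs over exons of Ensembl release 103 with no strand option, per the file headers. Symbols came from a gene name table that matched 52093 of 53647 identifiers.

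Counts were tested with edgeR 4.0.16 in R 4.3.3: all 12 libraries, 1 mean per group, TMM factors, filterByExpr, the quasi-likelihood test and Benjamini-Hochberg adjustment over 14863 genes, with a threshold of 0.05. The procedure was tested on simulated data. The common coefficient of variation was 3.05%. CPM used deposited totals, and TPM the deposited exonic lengths. Exact permutation of 2 against 2 libraries cannot go below p = 0.333, so none was run. Count ratios have exact conditional intervals at 95%. Same-numbered preparations deviated together (15 of 15 group pairs, r of 0.32 to 0.58), which pairs them. Alternatives were DESeq2 1.42.0, limma-voom (limma 3.58.1), other factors and filters, a 2-fold minimum, the block and each library left out. All members are named. Of each list only some genes are named with values, not always those with the smallest adjusted p. Members and lists were chosen with earlier results of these data known. Figures used matplotlib 3.10.9.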

Additional observations from a re-analysis of the deposited data

Results flagged for a closer look

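Differences between responses singled out 2 genes. The Cxcl10 response to uniSTING mRNA was larger under the DC2.4 label than under the 4T1 label by 2.57 on the log2 scale (edgeR adjusted p = 0.0239), a call lost without Mock preparation 2 labelled DC2.4 or any of 3 libraries labelled 4T1, Mock preparations 1 and 2 and uniSTING preparation 2 (0.0619 to 0.0878). It was higher in 2 of 2 preparations under the DC2.4 label, and in 1 of 2 under the 4T1 label. The Cxcl16 response differed between the same arms by 0.44 (edgeR adjusted p = 0.0193), with log2 ratios of 0.49 and 0.51 in the preparations labelled DC2.4 and 0.10 and 0.12 in those labelled 4T1. That call was lost with DESeq2 (0.0614), limma-voom (0.0607), and without uniSTING preparation 2 labelled DC2.4 (0.0552), Mock preparation 2 labelled 4T1 (0.12) or uniSTING preparation 1 labelled 4T1 (0.0683). The mRNA response of Cxcl10 under the 4T1 label minus its response to vesicles was -3.68 (edgeR adjusted p = 0.00933), with EXOuniSTING above EXOmock in 2 of 2 preparations. It was -2.52 without EXOmock preparation 2 and -8.87, a fit against 0 counts, without EXOmock preparation 1. The labels of the mRNA arms go against their cell markers, and the libraries behind the first difference also differ in cell type as the markers show it. What part this has in the differences was not tested.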

How the results depend on the processing

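Under the DC2.4 label the 5 calls held in every alternative that gave an adjusted p, apart from the 2-fold minimum; DESeq2 gave none for Cxcl11, and 1 CPM in 4 libraries removed it. The same held for Cxcl10 with vesicles. With the preparation number as a block, 5, 0 and 1 members were called in the 3 comparisons and no member's call changed, for example Cxcl10 at 3.53 with vesicles. The 2-fold minimum left 0 members under the DC2.4 label, 0 with vesicles and 0 in both differences of responses, and 20, 1, 13, 52, 19 and 5904 of all genes in the 3 comparisons, the 2 differences and the controls. All genes called with vesicles were 2393, and 1591 with DESeq2 and 1294 to 1532 without 1 library. Members that differed in response between the mRNA arms were 2, and 1 with DESeq2 and 0 to 2 without 1 library; those between the 4T1 label and vesicles were 1 to 2 without 1 library. Direction changed for uncalled fold changes only. For Cxcl2, without 1 library, they ran from -0.34 to 0.96 under the 4T1 label, -0.019 to 0.13 with vesicles, -0.35 to 0.95 between mRNA arms, -0.39 to 0.91 against vesicles and -0.53 to 0.74 between controls, where no filter on low counts gave -0.001. For Cxcl10 under the 4T1 label they ran from -0.56 to 0.18. Of 1693 values of single genes under alternatives, 1546 kept direction and side of the threshold. The causes were not tested. Low counts limit the precision for Cxcl2, Cxcl3, Cxcl9 and Cxcl11, with 0 to 56 per library.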
